A study of Rattus norvegicus with 28 samples.

Results

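Bdnf (ENSRNOG00000047466) and Ntrk2 (ENSRNOG00000018839) are described here across both brain regions and both viruses of the study. They were chosen by their Ensembl identifiers and are 2 of the 15635 genes in the deposited count table. Polyadenylated RNA was sequenced from the nucleus accumbens (NAc), a reward region of the ventral striatum, and from the medial prefrontal cortex (mPFC), one of the sources of its cortical input. All animals were male Sprague-Dawley rats, labelled young adults of 200 to 250 g, and all had taken cocaine by self-administration with extended access on 10 days. Histone H3.3 was then delivered by a lentivirus (lenti-pCDH) on both sides of 1 of the regions, and 30 days of expression and forced abstinence ended in a test of cocaine-cue seeking. The NAc H3.3WT and mPFC H3.3WT groups received the wild-type histone, and the NAc H3.3Q5A and mPFC H3.3Q5A groups received H3.3 with glutamine 5 replaced by alanine, the residue that can carry dopamine. Each group held 7 libraries, named by the replicate number in their titles, and each title also bears P1 or P2, a mark that the labels leave unexplained. There was no group without cocaine or without virus, and the labels give neither the promoter of the vector nor the cells it reached. Which animal each library came from is not labelled, and p-values therefore reflect only the spread between the libraries, which may be technical. Total counts ran from 15.4 to 51.7 M (megacounts) per library.

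Brain-derived neurotrophic factor, the product of Bdnf, is a secreted protein that is made as a longer precursor and released from neurons in an activity-dependent way. Its receptor TrkB, the product of Ntrk2, is a tyrosine kinase, and shorter forms without the kinase are abundant in astrocytes. In the striatum, most of the protein is carried in by axons from the cortex and other afferent regions, where its mRNA is made, whereas the receptor mRNA is made by striatal cells themselves. The BDNF and TrkB pair is widely studied in drug seeking after abstinence. Gene-level counts sum over all transcripts, so neither the alternative first exons of Bdnf nor the full-length and truncated forms of Ntrk2 could be told apart.

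RefSeq (GRCr8) gives 6 start-site windows for Bdnf, and the counts pool transcripts from all of them. The fourth by position is printed because it was the only one of the 6 with the letters TGACGT or their reverse complement ACGTCA, a core of the cyclic AMP response element, in the 250 bases before the start. Capitals mark this match. It lies at chr3:116637608-116637857 on the plus strand of GRCr8, a different build from that of the counts (rn6).
Bdnf window 4: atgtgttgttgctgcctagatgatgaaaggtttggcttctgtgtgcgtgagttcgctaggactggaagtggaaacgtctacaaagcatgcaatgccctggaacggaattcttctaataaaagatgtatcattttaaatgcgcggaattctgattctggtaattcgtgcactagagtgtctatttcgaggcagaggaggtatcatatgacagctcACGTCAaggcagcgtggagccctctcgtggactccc
Of all 33469 windows of this length in the table, 6.95% hold the motif on either strand. The match is a description of the letters only, and the counts do not show from which start Bdnf was read.

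Bdnf, the ligand, was far lower in NAc than in mPFC with either virus. Levels are given as CPM, the counts scaled to library size with trimmed-mean (TMM) factors over all 28 libraries. In NAc H3.3WT the lowest, median and highest Bdnf levels were 0.808, 5.12 and 15.2 CPM, with a mean of 6.11 ± 4.88 CPM (SD, n = 7). In NAc H3.3Q5A they were 1.09, 1.72 and 5.01 CPM, with a mean of 2.39 ± 1.51 CPM. The mPFC libraries lay well above these. In mPFC H3.3WT the lowest, median and highest levels were 23.7, 35.3 and 52.9 CPM, with a mean of 38.2 ± 10.8 CPM. In mPFC H3.3Q5A they were 20.4, 29.9 and 55.0 CPM, with a mean of 32.4 ± 11.2 CPM. No NAc library reached the level of any mPFC library, while within each region the virus groups overlapped. How many of all genes separate the regions in this way was not counted, so the separation is not shown to be particular to Bdnf.

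**Figure D1:**
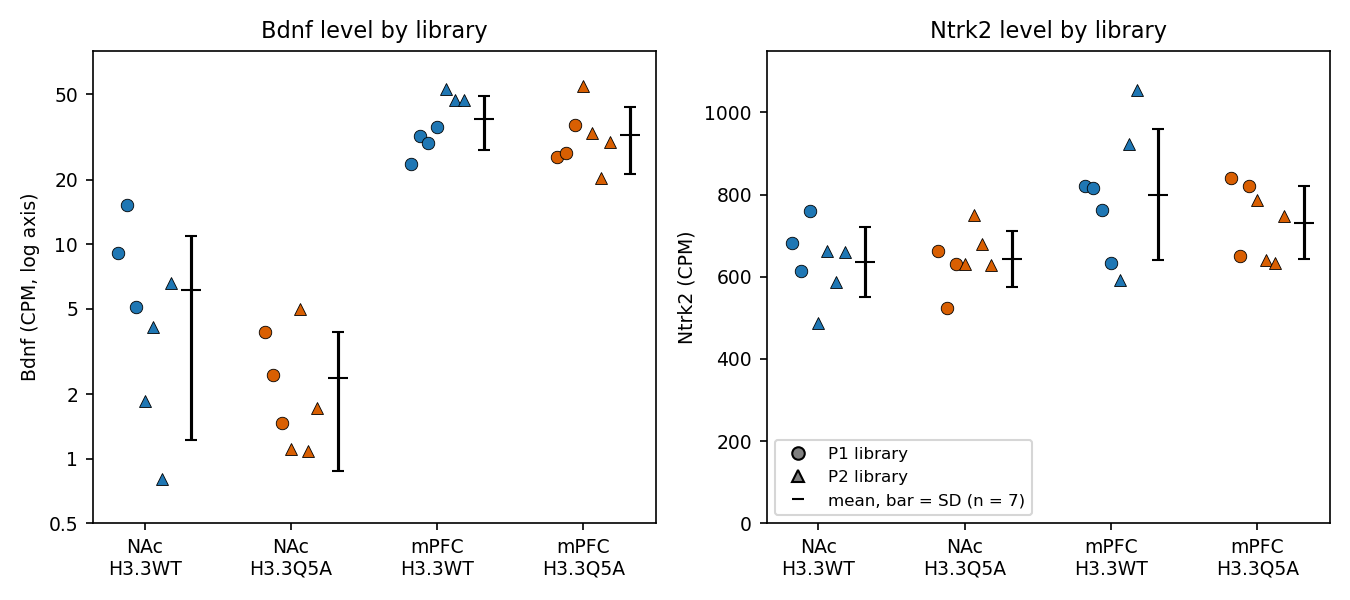
Bdnf (left, CPM on a log axis) and Ntrk2 (right, CPM) in each of the 28 libraries, grouped by region and virus, with circles for P1 and triangles for P2 libraries and bars for the mean ± SD (n = 7). Every NAc library lies below every mPFC library for Bdnf (highest NAc 15.2 CPM, lowest mPFC 20.4 CPM), whereas the Ntrk2 ranges of all 4 groups overlap. The share of all genes that separate the regions was not counted.

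The region difference in Bdnf passed the test with each virus. With H3.3WT the log2 fold change of NAc over mPFC was −2.66 (SE 0.41, 95% interval −3.51 to −1.81; edgeR quasi-likelihood test, adjusted p = 6.34e-06), and the mean level in mPFC was 6.26 times that in NAc. With H3.3Q5A it was −3.78 (SE 0.45, 95% interval −4.70 to −2.87; edgeR adjusted p = 6.89e-08), and the mean level in mPFC was 13.6 times that in NAc. These are wide differences for this table: 79 of 15635 genes with H3.3WT and 34 with H3.3Q5A had a NAc over mPFC fold change as low or lower. At an adjusted p under 0.05 with any fold, 53.3% of all genes were called between the regions with H3.3WT and 55.4% with H3.3Q5A, so a call by itself is common. When the log2 fold change also had to reach 1, 12% and 13.7% were called, 6.45% and 7.81% of all genes being higher in mPFC, and Bdnf was among these with both viruses. Among P1 libraries alone the Bdnf fold change with H3.3WT was −1.63 and among P2 libraries alone −3.84.

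Ntrk2, the receptor, was present at high levels in both regions, with a mean in mPFC of 1.26 times that in NAc with H3.3WT and 1.14 times with H3.3Q5A. In NAc H3.3WT the lowest, median and highest Ntrk2 levels were 488, 660 and 761 CPM (mean 636 ± 85.5 CPM, SD, n = 7). In NAc H3.3Q5A they were 525, 630 and 751 CPM (mean 644 ± 68.2 CPM). In mPFC H3.3WT they were 592, 815 and 1054 CPM (mean 800 ± 159 CPM), the widest range of the 4 groups. In mPFC H3.3Q5A they were 634, 747 and 841 CPM (mean 731 ± 89.0 CPM). The NAc and mPFC libraries overlapped with each virus. The 2 genes are not set against each other in level because the table gives no transcript lengths.

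With H3.3WT the Ntrk2 log2 fold change of NAc over mPFC was −0.33 (SE 0.11, 95% interval −0.56 to −0.10; edgeR adjusted p = 0.0157), a kind of call that 53.3% of all genes received. The call was kept under 33 alternative settings and lost under 2. Without mPFC H3.3WT replicate 36, the library highest in Ntrk2, it was −0.24 at an edgeR adjusted p of 0.0641, and among P1 libraries alone it was −0.15 (edgeR adjusted p = 0.405). With H3.3Q5A it was −0.18 (SE 0.11, 95% interval −0.41 to 0.05; edgeR adjusted p = 0.171), which did not pass. By mean level Ntrk2 was highest in mPFC H3.3WT, then mPFC H3.3Q5A, NAc H3.3Q5A and NAc H3.3WT, and neighbours in this order overlapped. The order for Bdnf was mPFC H3.3WT, mPFC H3.3Q5A, NAc H3.3WT and NAc H3.3Q5A, and there the ranges separated only between the regions.

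Bdnf varied more between libraries of the same group than most genes did, in both regions. The genes were not matched for level, and counting error weighs more on low counts such as those of Bdnf in NAc. Its coefficient of variation was 79.9% in NAc H3.3WT, larger than that of 99.3% of the 14180 genes with a mean of at least 1 CPM in the group (median of all genes 15.6%). In NAc H3.3Q5A it was 63.3%, larger than in 98.1% of genes. The mPFC values were lower, 28.3% in H3.3WT libraries, larger than in 88.1% of genes, and 34.6% in H3.3Q5A libraries, larger than in 92.0% of genes. Ntrk2 varied about as much as a typical gene in NAc, with coefficients of 13.4% and 10.6%. The NAc library lowest in Bdnf, H3.3WT replicate 21, held 21 Bdnf counts (exact Poisson 95% interval 13 to 32.1) and the highest, H3.3WT replicate 12, held 392 (354 to 433). Such intervals cover counting error only.

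The NAc libraries differed in how much RNA typical of cortex they held, and Bdnf was compared with that amount. The cortical share of a NAc library was taken as its summed CPM over 272 mPFC-high genes, divided by the mean of that sum over the 14 mPFC libraries, in percent. The mPFC-high genes were those called for mPFC over NAc, averaged over both viruses, whose log2 fold change reached 2, and Bdnf and Ntrk2 were left out of them. The share counts every read of these genes in a NAc library, from whichever cells it came, and is not a proportion of tissue. In bulk RNA, fewer cells of a type and less RNA per cell cannot be told apart. Bdnf itself met the limits for these genes, with a NAc over mPFC log2 fold change of −3.22 over both viruses.

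Across the 14 NAc libraries the Bdnf level followed the cortical share closely. NAc H3.3WT replicate 12 had the highest share, 42.9%, and the highest Bdnf level, 15.2 CPM. Next came H3.3WT replicate 8, with a share of 29.3% and 9.08 CPM of Bdnf. H3.3WT replicate 23 had a share of 25.7% and 6.59 CPM, and H3.3Q5A replicate 19, the highest of its group, 25.4% and 5.01 CPM. At the other end, H3.3Q5A replicate 22 had a share of 9.62% and 1.09 CPM, and H3.3WT replicate 21 had 9.76% and 0.808 CPM. Pearson's r was 0.981 and Spearman's rho 0.969 (permutation tests, two-sided, n = 14, each p = 1e-05, the smallest that 100000 resamples can give, and each adjusted p = 6e-05 over 6 relations). Without H3.3WT replicates 12 and 8, the 2 libraries farthest from the median share, r was 0.955 (n = 12).

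The relation was also seen within each mark and each virus. Pearson's r was 0.999 among the 6 P1 libraries (exact permutation p = 0.00139) and 0.979 among the 8 P2 libraries (exact permutation p = 0.000174). It was 0.994 among the 7 H3.3WT libraries (exact permutation p = 0.000397) and 0.941 among the 7 H3.3Q5A libraries (exact permutation p = 0.00218). When the mPFC-high genes for each library were chosen only on libraries with the other virus, r was 0.987. That choice gives the viruses different gene lists (319 genes for H3.3WT libraries and 223 for H3.3Q5A libraries), so this r pools different scales. The virus difference in mean share was −11.3 points on those lists and −8.50 points on the shared list. With the median ratio over the shared list in place of the summed level, r was 0.941. Expressed as a percent of the mean mPFC level, Bdnf rose by 1.15 points (SE 0.07) for each point of cortical share. The line met a Bdnf level of 0 at a share of 8.04%, just below the lowest share observed. On leaving out each library this point ran from 7.12% to 8.25%. The scale of the share depends on the fold limit that chose the genes. At log2 limits of 1, 2 and 3, NAc shares averaged 30.2%, 14.2% and 6.88% in H3.3Q5A libraries. For H3.3WT libraries these averages were 36.8%, 22.7% and 12.9%. The line was fitted at the limit of 2 only, so its slope and zero point hold for that list alone. The 14 points share the normalization, and the genes of the share were chosen with these libraries in the fit.

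**Figure D2:**
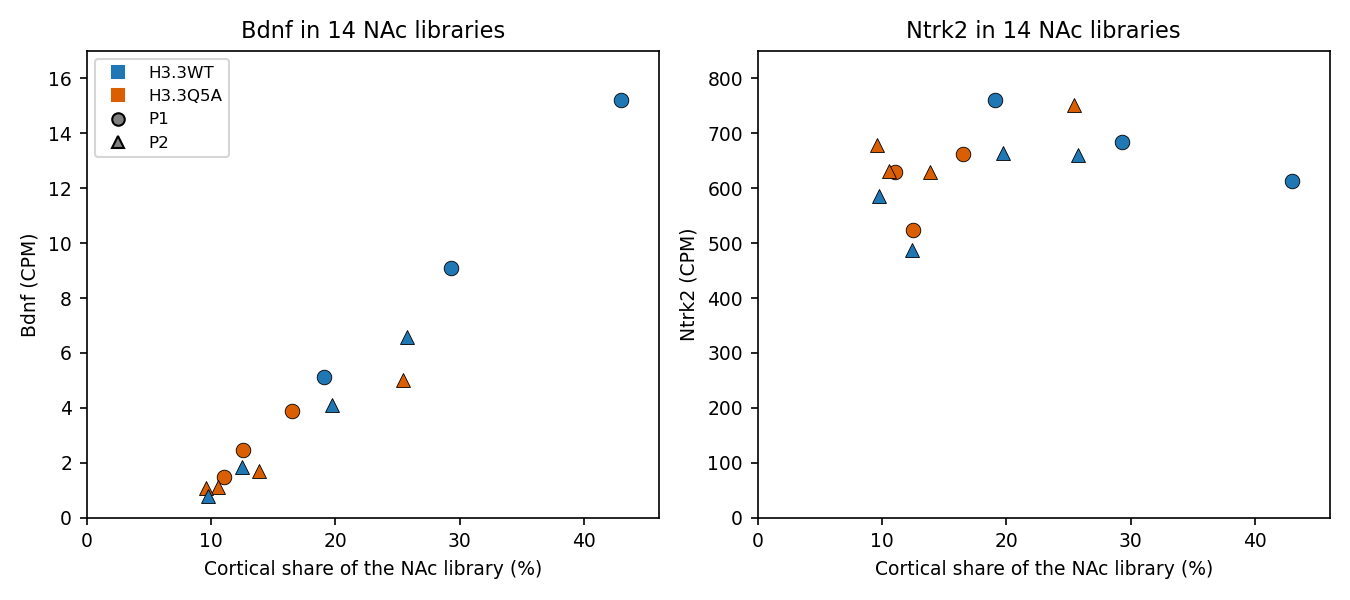
Bdnf (left) and Ntrk2 (right), both in CPM, against the cortical share in percent in the 14 NAc libraries, coloured by virus, with circles for P1 and triangles for P2. Bdnf runs from 0.808 to 15.2 CPM and is higher where the share is higher (r = 0.981), and Ntrk2 runs from 488 to 761 CPM (r = 0.293). A difference in the Bdnf line between viruses was not tested.

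The relation of Ntrk2 with the cortical share did not pass the test. Its Pearson's r with the cortical share was 0.293 (rho 0.332, permutation p = 0.305 for r, adjusted p = 0.479, n = 14). The same value was 0.565 without H3.3WT replicates 12 and 8 (permutation p = 0.0547), 0.103 among P1 and 0.556 among P2 libraries. A relation between ligand and receptor across libraries was not shown either: r between Bdnf and Ntrk2 was 0.223 in NAc (rho 0.358, permutation p = 0.431 for r, adjusted p = 0.479) and 0.241 in mPFC (rho 0.0901, permutation p = 0.409 for r, adjusted p = 0.479). Without the 2 libraries farthest from the median Ntrk2 level, r was 0.0801 in NAc and 0.370 in mPFC. The value in NAc was 0.0897 among P1 and 0.486 among P2 libraries, and in mPFC it was −0.228 and 0.366. Leaving out 1 library moved these values without a call: r in NAc ran from 0.152 (without H3.3WT replicate 17) to 0.505 (without H3.3WT replicate 12), and in mPFC from 0.0617 (without H3.3WT replicate 36) to 0.510 (without H3.3WT replicate 21), with 0.143 without H3.3Q5A replicate 34 and 0.148 without H3.3WT replicate 35.

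Bdnf was set beside the mPFC-high genes one by one, as a description with no test. Of the 272, 196 passed the count filter in NAc and 76 did not. Over the 14 NAc libraries the median r of the 196 with the summed level of the other mPFC-high genes was 0.768 (quartiles 0.451 and 0.938), and 5 genes had a higher value than Bdnf at 0.981. Its mean level in NAc was 12% of its mean level in mPFC. The median of this value for all 272 mPFC-high genes, filtered or not, was 18.1%, and 65 of them lay below Bdnf. Those genes were chosen for a low level in NAc against mPFC, so a low median follows from the choice. Of the 100 genes most like Bdnf across NAc libraries by Spearman's rho of log2 CPM, each at 0.877 or more, 43 were mPFC-high genes, which made up 0.959% of the 14188 genes ranked. This count is not separate from the relation of Bdnf with the cortical share, which sums the same genes in the same libraries. The genes nearest to Bdnf were ENSRNOG00000037476 (rho 0.987), an mPFC-high gene, and ENSRNOG00000013783 (rho 0.982), whose mean was 119 CPM in NAc and 365 CPM in mPFC. For Ntrk2 1 of the 100 most alike genes was mPFC-high, and the nearest were ENSRNOG00000028534 (rho 0.938) and ENSRNOG00000013507 (rho 0.930). In mPFC, 9 of the 100 genes most like Bdnf were mPFC-high, against 1.77% of the genes ranked.

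**Figure D3:**
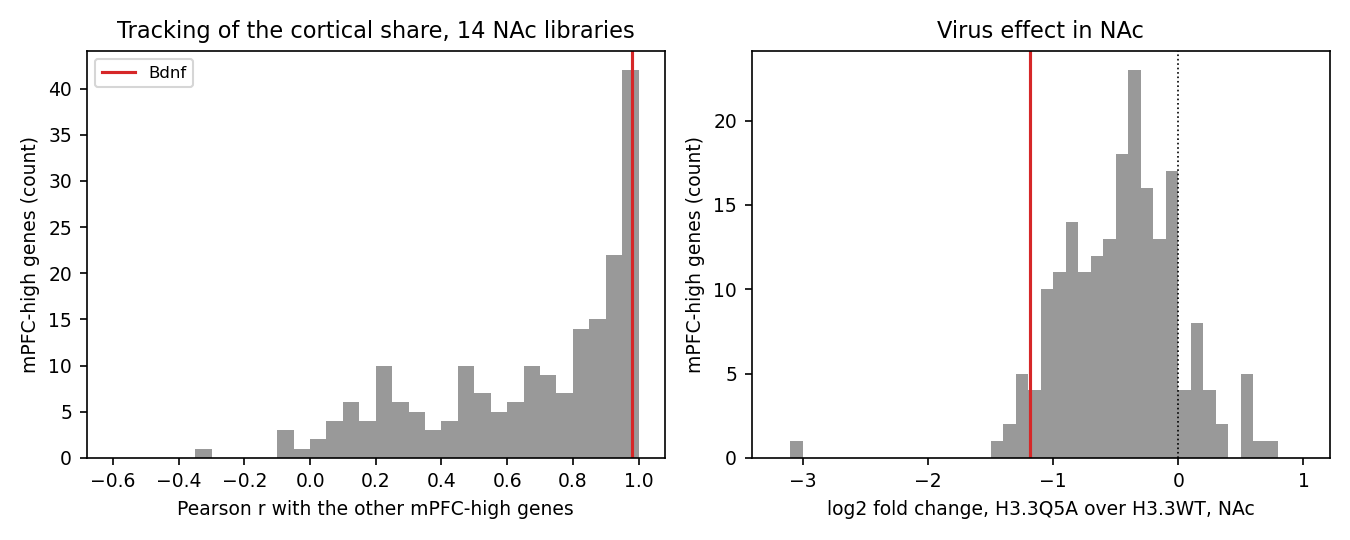
The 196 mPFC-high genes that passed the count filter in NAc, of 272, as counts of genes, by Pearson r with the summed level of the other mPFC-high genes over the 14 NAc libraries (left) and by log2 fold change of H3.3Q5A over H3.3WT (right), with Bdnf as a red line. Bdnf lies at the high end on the left (r = 0.981) and toward the low end on the right (−1.19, median of the genes −0.43).

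Within NAc, Bdnf was lower with H3.3Q5A than with H3.3WT by its mean, but it was not called once p-values were adjusted over all genes tested. The mean of 6.11 CPM with H3.3WT was 2.56 times the mean of 2.39 CPM with H3.3Q5A. All 7 H3.3Q5A libraries lay below the H3.3WT mean and 4 H3.3WT libraries lay above every H3.3Q5A library, although the lowest library of all, replicate 21, was H3.3WT. The log2 fold change of H3.3Q5A over H3.3WT was −1.19 (SE 0.50, 95% interval −2.25 to −0.12; edgeR quasi-likelihood test, unadjusted p = 0.0320, adjusted p = 0.637). DESeq2 gave an adjusted p of 0.416 and limma voom with sample quality weights an adjusted p of 0.0920. An exact permutation test on log2 CPM gave p = 0.107. Neither member was called, and 0% of the 15315 genes tested were: edgeR called 0 genes, with 1200 at an unadjusted p under 0.05, DESeq2 called 9 and limma voom 4.

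The mean cortical share of the same libraries was lower with H3.3Q5A, by a difference that did not pass the test. In H3.3WT libraries it averaged 22.7% ± 11.2 (SD, n = 7) and in H3.3Q5A libraries 14.2% ± 5.45, which is −8.50 percentage points apart (exact permutation p = 0.0886, two-sided). With the share of each library as a further term, the Bdnf log2 fold change was −0.21 (SE 0.26, 95% interval −0.76 to 0.34; edgeR adjusted p = 0.855), in place of −1.19. A virus effect on these transcripts in NAc and a different amount of cortical RNA in the samples cannot be told apart by this fit, since the share is measured on the transcripts themselves. The 196 mPFC-high genes tested in NAc had a median virus fold change of −0.43 on the log2 scale, with 171 below 0, where the median of all genes was 0.01, and 10 of the 196 were lower than Bdnf.

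The difference in Bdnf between viruses was larger among P1 libraries than among P2 libraries, as was the difference in share. Among P1 libraries the Bdnf mean was 9.80 CPM with H3.3WT (n = 3) and 2.60 CPM with H3.3Q5A (n = 3), with no overlap. The share of all genes without overlap in this small split was not counted. The mean cortical share of these libraries was 30.4% and 13.4% (exact permutation p = 0.1, the smallest that 3 against 3 allows). Among P2 libraries the Bdnf mean was 3.34 CPM (n = 4) and 2.23 CPM (n = 4), with overlap, and the mean share was 16.9% and 14.9% (exact permutation p = 0.743). The Bdnf log2 fold change was −1.90 among P1 (edgeR adjusted p = 0.385) and −0.62 among P2 libraries (edgeR adjusted p = 0.828). The difference between the marks was tested directly and did not pass: it was 1.28 on the log2 scale (SE 0.96, edgeR adjusted p = 0.721).

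**Figure D4:**
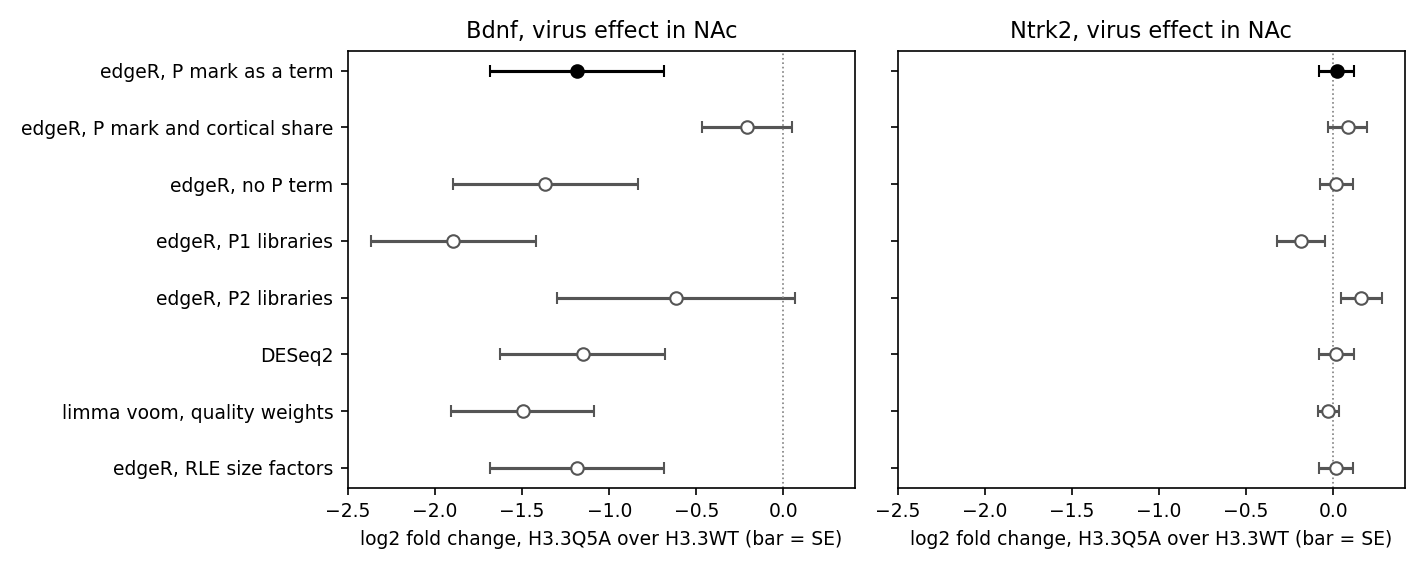
Log2 fold change of H3.3Q5A over H3.3WT in NAc for Bdnf (left) and Ntrk2 (right), with bars for 1 SE, from the fit used in the text (filled) and from other settings (open). For Bdnf the value lies at −1.19 in the fit used and at −0.21 with the cortical share as a term, and for Ntrk2 the values lie between −0.19 and 0.16.

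Ntrk2 in NAc had a log2 fold change of 0.02 between the viruses (SE 0.10, 95% interval −0.19 to 0.23; edgeR adjusted p = 0.969). Of the 7 H3.3Q5A libraries, 4 lay below the H3.3WT mean and 3 above it. The value was −0.19 among P1 and 0.16 among P2 libraries, a difference between the marks of 0.34 (SE 0.18, edgeR adjusted p = 0.697) that did not pass. It was also negative on leaving out H3.3WT replicate 17 or H3.3Q5A replicate 19 or 22. With the cortical share as a term it was 0.08 (SE 0.11).

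In mPFC, neither gene passed the test for the virus. The Bdnf log2 fold change was −0.26 (SE 0.18, 95% interval −0.65 to 0.12; edgeR adjusted p = 0.651), and 6 of 7 H3.3Q5A libraries lay below the H3.3WT mean. H3.3Q5A replicate 14 was the exception and held the highest Bdnf level of all libraries. The fold change was −0.16 without H3.3Q5A replicate 34, the library lowest in Bdnf of its region, and −0.39 without H3.3Q5A replicate 14 (edgeR adjusted p = 0.451). It was −0.03 among P1 and −0.49 among P2 libraries, a difference of −0.46 (SE 0.35, edgeR adjusted p = 0.870) that did not pass. For Ntrk2 it was −0.12 (SE 0.12, 95% interval −0.39 to 0.14; edgeR adjusted p = 0.737), and 0.03 among P1 and −0.27 among P2 libraries, which differed by −0.30 (SE 0.24, edgeR adjusted p = 0.870). As in NAc, 0% of genes were called by edgeR (0 of 15485, with 1221 at an unadjusted p under 0.05), DESeq2 called 8 and limma voom 0.

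Bdnf in mPFC H3.3WT was split by mark after the data had been seen. The 4 P1 libraries, replicates 3, 6, 11 and 13, were at 23.7, 31.9, 29.8 and 35.3 CPM. The 3 P2 libraries, replicates 21, 35 and 36, were at 52.9, 47.2 and 46.9 CPM. The 2 sets did not overlap, and no test was made. The share of all genes that separate by mark in this group was not counted, and groups this small can separate by chance. With H3.3Q5A they did overlap: P1 libraries ran from 25.6 to 36.1 CPM and P2 libraries from 20.4 to 55.0 CPM.

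The reverse measure, the accumbens share of the mPFC libraries, was built in the same way from 258 NAc-high genes. It ran from 10.4% to 14.1% in H3.3WT and from 10.7% to 19.6% in H3.3Q5A, where replicate 34 stood apart at 19.6%. Its relation with Bdnf was negative and did not pass as Pearson's r, at −0.515 (permutation p = 0.0423, adjusted p = 0.127 over 6 relations, n = 14). It passed as Spearman's rho, at −0.666 (permutation p = 0.0116, adjusted p = 0.0348). Without replicate 34 and H3.3WT replicate 11, the farthest from the median, r was −0.542 (permutation p = 0.0705, n = 12). It was −0.190 among P1 (exact permutation p = 0.745) and −0.700 among P2 libraries (exact permutation p = 0.0526). For Ntrk2 r was −0.205 and rho 0.178 (permutation p = 0.479 for r, adjusted p = 0.479), r was 0.410 without the same 2 libraries, and it was 0.0939 among P1 and −0.260 among P2 libraries.

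**Figure D5:**
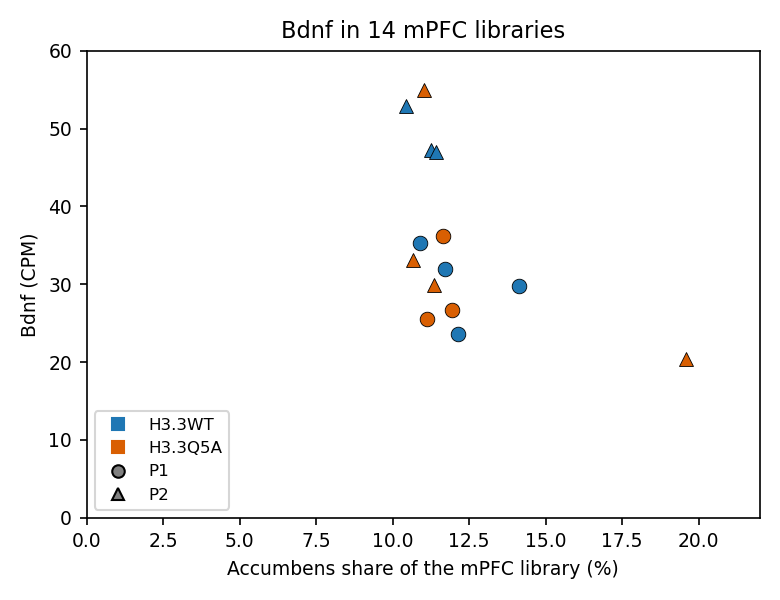
Bdnf (CPM) against the accumbens share in percent in the 14 mPFC libraries, coloured by virus, with circles for P1 and triangles for P2. H3.3Q5A replicate 34 lies apart at a share of 19.6% and 20.4 CPM, while the other libraries lie between 10.4% and 14.1% and spread from 23.7 to 55.0 CPM.

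The virus effects were also compared between regions. The interaction for Bdnf, the NAc effect minus the mPFC effect, was −1.12 on the log2 scale (SE 0.58, 95% interval −2.31 to 0.06; edgeR unadjusted p = 0.0622, adjusted p = 0.904). It was −0.75 without NAc H3.3WT replicate 12, the library with the highest cortical share, −1.86 among P1 and −0.16 among P2 libraries. For Ntrk2 the interaction was 0.15 (SE 0.16, 95% interval −0.18 to 0.47; edgeR adjusted p = 0.930), with −0.21 among P1 and 0.44 among P2 libraries. edgeR called 0% of genes (0 of 15635, with 822 at an unadjusted p under 0.05), DESeq2 called 0 and limma voom 9. Neither gene was therefore shown to respond to H3.3Q5A differently in NAc and mPFC.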

How the data were processed

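RNA was extracted with Trizol and an RNeasy column and made into libraries with a TruSeq V2 kit, per the labels' protocols. The authors deposited whole-number read counts by Ensembl gene, not normalized, for 28 libraries. HISAT2 2.1.0, featureCounts 2.0.1, DESeq2 1.6.3 and build rn6 are named, per the submitters' processing notes. Every gene reaches 10 counts in at least 14 libraries, so low genes had been removed before deposit. Groups, replicate numbers and P marks come from the titles.

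Tests were fitted on the whole table with edgeR 4.0.16 (R 4.3.3; TMM, filterByExpr, quasi-likelihood F test, P mark as an additive term) and adjusted by Benjamini-Hochberg, with a limit of 0.05. Virus effects used the 14 libraries of a region, and other comparisons all 28. DESeq2 1.42.0 and limma 3.58.1 served as alternatives. Log2 CPM used a prior count of 2. The procedures were tested on simulated data. No pair of libraries in a group agreed within sampling noise (smallest chi-square per degree of freedom 7.49).

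The members and lists were chosen with earlier results of these data known. The rule for named genes gave both members and, for likeness, the 2 IDs of highest rho among genes at 1 CPM or more. The symbols of the members came with their selection. No other ID could be paired with a symbol from the tables at hand, so the neurotrophin list and the cell type markers were not analysed here, and the labelled tissues were not checked against markers. The comparison of the virus effect between P marks, and the split of mPFC Bdnf by mark, were added after seeing the data.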

Additional observations from a re-analysis of the deposited data

Results flagged for a closer look

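The accumbens share of mPFC H3.3Q5A replicate 34 was 19.6%, and the next highest library of its group was at 11.9%, a gap of 0.860 of the group's range (limit 0.568 for 7 libraries). It was the only one of 12 sets of 7 libraries (Bdnf, Ntrk2 and the share in each group) with a library beyond the limit. By chance about 1 in 20 such sets would hold one, and whether 1 in 12 is more than chance was not tested. Replicate 34 was also the lowest of the mPFC libraries in Bdnf, at 20.4 CPM. Its part in the Bdnf values of mPFC is given by leaving it out: the virus fold change was −0.16 in place of −0.26, and r with the accumbens share was −0.440 in place of −0.515. NAc H3.3Q5A replicate 19 fell just short of the limit in cortical share, at 25.4% with the next of its group at 16.5%. Without replicate 19 the Bdnf virus log2 fold change in NAc was −1.67 (edgeR adjusted p = 0.403) in place of −1.19.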

How the results depend on the processing

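No paired analysis was possible because the groups compared share fewer than 2 replicate numbers. Bdnf kept its direction and its side of the threshold for the virus effect in each region, the interaction, both region differences and the relation with the cortical share under all alternatives run. On leaving out each library, its log2 fold change ranged from −1.67 to −0.943 for the virus in NAc, from −3.02 to −2.44 between regions with H3.3WT and from −4.14 to −3.58 with H3.3Q5A, and r with the cortical share from 0.963 to 0.993. The relation of Bdnf with the accumbens share passed as Spearman's rho (−0.666) and on log2 values (−0.605). Small Ntrk2 values changed sign: the virus effect in NAc was −0.027 with limma voom, −0.185 among P1 libraries and −0.0403 to 0.0714 on leaving out each library, in mPFC it was 0.0295 among P1 libraries, and the interaction was −0.207 among P1 libraries. The Ntrk2 region difference with H3.3WT lost its call among P1 libraries (−0.145) and ranged from −0.396 to −0.242 on leaving out each library. The r of Ntrk2 with the accumbens share was 0.178 as rho, 0.0939 among P1, 0.165 among H3.3WT libraries, 0.41 without the farthest 2 libraries and −0.315 to 0.187 on leaving out each library, and r between Bdnf and Ntrk2 in mPFC was −0.228 among P1 libraries. The virus difference in cortical share was −11.3 points with genes chosen on the other virus, and passed there (exact permutation p = 0.0251). In that setting the viruses are measured on different gene lists and are not compared like for like. With 1 list the difference in cortical share ranged from −10.7 to −5.13 on leaving out each library, passing without NAc H3.3WT replicate 17 or 21 or H3.3Q5A replicate 19. The virus difference in accumbens share was −0.121 with genes chosen on the other virus, again on different lists, −0.657 among P1 libraries and −0.423 to 1.17 on leaving out each library. Genes called in NAc were 9 with DESeq2, 4 with limma voom and 0 to 1 on leaving out each library, in mPFC 8 with DESeq2, and for the interaction 9 with limma voom. The cause of these changes was not tested. Counting precision for Bdnf in NAc rests on 21 to 392 counts per library.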
